A study of Mus musculus with 12 samples.

Results

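LIM homeobox genes were followed in RNA-seq of primary mouse oligodendrocyte precursor cells (OPCs), the glial progenitors that give rise to myelinating oligodendrocytes. The genes described are Lhx1, Lhx2, Lhx5, Lhx6, Lhx8, Lhx9, Isl1, Isl2, Lmx1a and Lmx1b, which were taken by symbol and are 10 of the 55536 genes measured. Lhx3 and Lhx4 complete the mouse family of 12 genes and are given for comparison. The OPCs came from pooled brains of pups at postnatal day 4 to 6 of a cross of Sox10:Cre mice (C57BL/6j) with RCE:loxP(EGFP) reporter mice (mixed C57BL/6xCD1), with the Cre allele kept hemizygous, in which Sox10-driven Cre turns on EGFP in the whole oligodendrocyte lineage. The labels call the cells Sox10GFP+ OPCs, whereas the protocol allows either sorting for Sox10GFP or magnetic selection for CD140a and does not say which was used for a given library. The labels also carry the mouse model EAE, although all 12 libraries are of cultured cells from pups. The 4 groups were Ctr, which received neither agent (no vehicle is named), EZH2i, IFN-γ, and both agents (called IFN-γ with EZH2i), with 3 replicates in each from different litters. EZH2i is the EZH2 inhibitor EPZ011989 (1.5 μM for 4 days, renewed every 48 h). IFN-γ (100 ng/ml) was present for 6 h after these 4 days, in the last group together with fresh inhibitor. All groups were grown in medium with PDGFaa and bFGF.

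Total estimated counts per library lay between 17403893 and 66546052 (median 33625908). The OPC label was checked with 7 OPC markers (Pdgfra, Cspg4, Sox10, Olig1, Olig2, Ptprz1 and Gpr17), whose summed level was 8111 to 8375 CPM (TMM-normalised counts scaled to library size) in Ctr. It was 6700 to 7100 CPM in EZH2i, 5292 to 7130 CPM with IFN-γ and 4304 to 5199 CPM with IFN-γ and EZH2i. The 6 microglia markers summed to at most 1.68 CPM in any library. Astrocyte markers (6 genes, 644 to 2137 CPM) and neuron markers (7 genes, 673 to 2333 CPM) were present in all groups. The neuron markers summed to 800 to 884 CPM in Ctr and 1344.5 to 2030 CPM with IFN-γ. In bulk RNA, a change in the number of cells that express a gene and a change in RNA per cell cannot be told apart.

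LIM homeobox proteins are transcription factors with a pair of LIM zinc finger domains, which bind cofactors such as LDB1, and a homeodomain, which binds DNA. Combinations of them set the identity of neuron types in the embryo: motor neurons use Isl1, Isl2, Lhx3 and Lhx4, forebrain GABA neurons use Lhx6 and cholinergic neurons Lhx8, midbrain dopamine neurons use Lmx1a and Lmx1b, and spinal and cerebellar neurons use Lhx1, Lhx5 and Lhx9. Most of these genes are classic targets of Polycomb repressive complex 2 (PRC2), whose catalytic subunit EZH2 methylates lysine 27 of histone H3, and they are silent in most cells outside the lineage that uses them. In mammals this repression is found mostly at CG-rich gene starts.

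The sequence upstream of the start is shown for 5 members, with every CG dinucleotide in capitals. Isl2 is the member that passed the test, Lhx1 and Lmx1b each share this stretch with the start of a noncoding gene on the other strand, Lhx8 is a CG-poor start, and Lhx2 is the member that was expressed in all groups. Each line holds the 250 bases before the RefSeq start (GRCm38.p6), read 5′ to 3′ on the strand of the gene. The positions are chr9:55540899-55541148 on the plus strand for Isl2, chr11:84525535-84525784 on the minus strand for Lhx1, chr2:33641099-33641348 on the minus strand for Lmx1b, chr3:154330561-154330810 on the minus strand for Lhx8, and chr2:38339031-38339280 on the plus strand for Lhx2. The 250 bases held 16 CG in Isl2, 26 in Lhx1, 19 in Lmx1b, 4 in Lhx8 and 25 in Lhx2.
Isl2: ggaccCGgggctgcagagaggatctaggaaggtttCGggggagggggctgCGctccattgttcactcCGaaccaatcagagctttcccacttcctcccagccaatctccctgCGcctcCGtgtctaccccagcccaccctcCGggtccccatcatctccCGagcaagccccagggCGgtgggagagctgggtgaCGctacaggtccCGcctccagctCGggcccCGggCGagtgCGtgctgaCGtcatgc
Lhx1: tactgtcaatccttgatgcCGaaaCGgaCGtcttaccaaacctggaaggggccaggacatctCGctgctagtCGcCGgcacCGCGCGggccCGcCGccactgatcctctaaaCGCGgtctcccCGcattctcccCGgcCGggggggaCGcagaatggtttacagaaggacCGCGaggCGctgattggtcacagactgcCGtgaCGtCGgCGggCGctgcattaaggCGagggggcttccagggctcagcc
Lmx1b: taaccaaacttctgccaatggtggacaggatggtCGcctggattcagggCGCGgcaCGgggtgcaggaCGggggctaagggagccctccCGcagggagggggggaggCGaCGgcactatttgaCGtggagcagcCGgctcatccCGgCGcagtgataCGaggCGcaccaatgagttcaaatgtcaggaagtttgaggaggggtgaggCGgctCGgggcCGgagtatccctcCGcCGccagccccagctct
Lhx8: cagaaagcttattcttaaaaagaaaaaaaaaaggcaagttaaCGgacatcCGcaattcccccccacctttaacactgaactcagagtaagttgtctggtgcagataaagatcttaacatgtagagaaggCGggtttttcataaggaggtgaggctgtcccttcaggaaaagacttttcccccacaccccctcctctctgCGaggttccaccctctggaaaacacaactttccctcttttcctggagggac
Lhx2: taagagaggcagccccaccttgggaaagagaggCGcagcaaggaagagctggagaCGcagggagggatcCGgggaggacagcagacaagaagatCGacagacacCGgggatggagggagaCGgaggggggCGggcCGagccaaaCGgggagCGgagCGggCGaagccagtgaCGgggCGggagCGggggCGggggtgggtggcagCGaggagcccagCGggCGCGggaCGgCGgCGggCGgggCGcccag

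RefSeq windows of 300 bases (250 before and 50 after the start) were found for 9 of the 10 members, 12 windows in all, and for 32851 starts of 27025 genes. Lhx5 had no entry. The members' windows held a median of 20 CG against 7 over all windows, and 10 of the 12 were above that median. They ranged from 4 CG in Lhx8 and 6 in Lhx9 to 34 in the upstream window of Lhx2 and 37 in Isl1. G+C made up a median of 64.5% of the members' windows and 52.7% of all windows. The letters TATAAA, searched on both strands, occurred in 1 of the 12 windows (8.33%), a start within Lhx6, and in 13.6% of all windows. The letters CCAAT, also on both strands, occurred in 7 of 12 (58.3%) and in 37.4% of all windows. Both CG-rich and CG-poor starts were found among the members with more RNA after EZH2i, and the CG-rich start of Lhx2 belonged to a gene with similar levels in Ctr and EZH2i, as described in what follows.

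**Figure D1:**
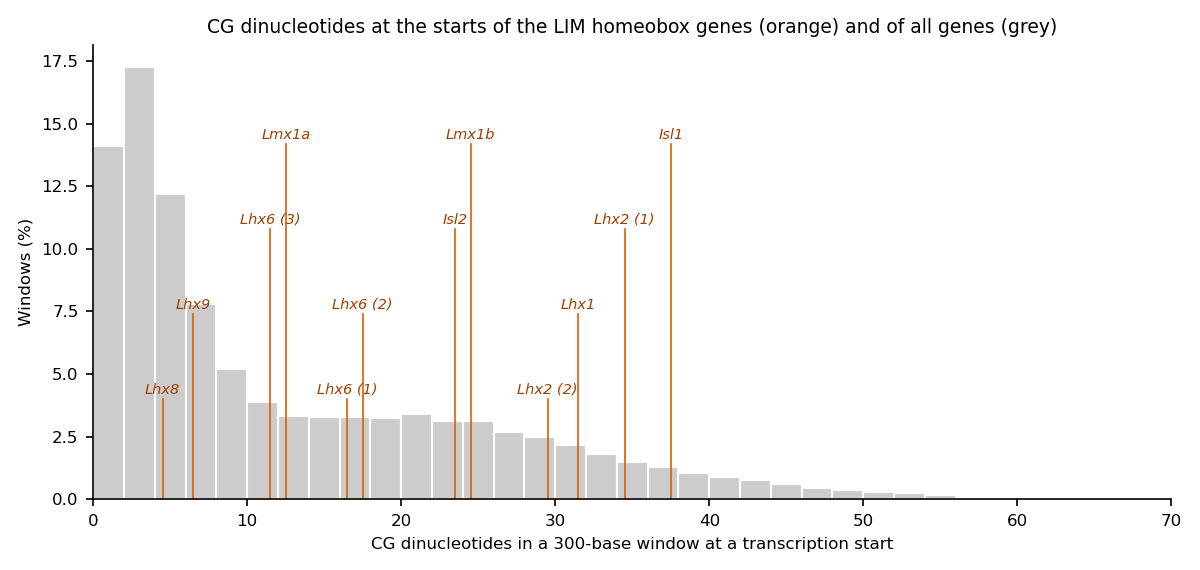
Number of CG dinucleotides in 300-base windows at transcription starts (x axis) and share of 32851 windows in percent (grey bars, y axis). Orange lines mark the 12 windows of 9 members at their CG number only, their height has no meaning, and a number in brackets tells windows of the same gene apart. Lhx8 (4) and Lhx9 (6) lie below the median of 7, and Isl1 (37) is the highest.

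Levels were compared between members in TPM, the share of a transcript in its library, which takes transcript length into account. Lhx2, a gene of forebrain and eye progenitors, was the highest member in all 4 groups and overlapped with no other member, at a mean of 9.22 ± 3.35 TPM (SD, n = 3) in Ctr, 13.4 ± 2.45 in EZH2i, 7.15 ± 2.07 with IFN-γ and 9.11 ± 2.79 with IFN-γ and EZH2i. It made up 92.2 to 98.4% of the summed TPM of the 10 members in the Ctr libraries and 71.5 to 84.6% in the EZH2i libraries. With IFN-γ the share was 91.8 to 96.5%, and with IFN-γ and EZH2i it was 69.9 to 80.8%. Second in order came Isl2 in Ctr (0.120 ± 0.0760 TPM), in EZH2i (1.71 ± 0.921) and with IFN-γ and EZH2i (1.06 ± 0.668), and Lmx1b with IFN-γ (0.104 ± 0.0771). Below the second place neighbours in the order overlapped in all groups, except Lhx8 above Lhx1 in IFN-γ with EZH2i. Isl1 was at 0 in the 3 Ctr libraries and Lhx1 in the 3 IFN-γ libraries. A read was counted in each of 3 libraries for 3 of the 10 members in Ctr, 10 in EZH2i, 6 with IFN-γ and 9 with IFN-γ and EZH2i. All members but Lhx2 thus lay near the limit of detection without the inhibitor, and their values there rest on few reads.

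**Figure D2:**
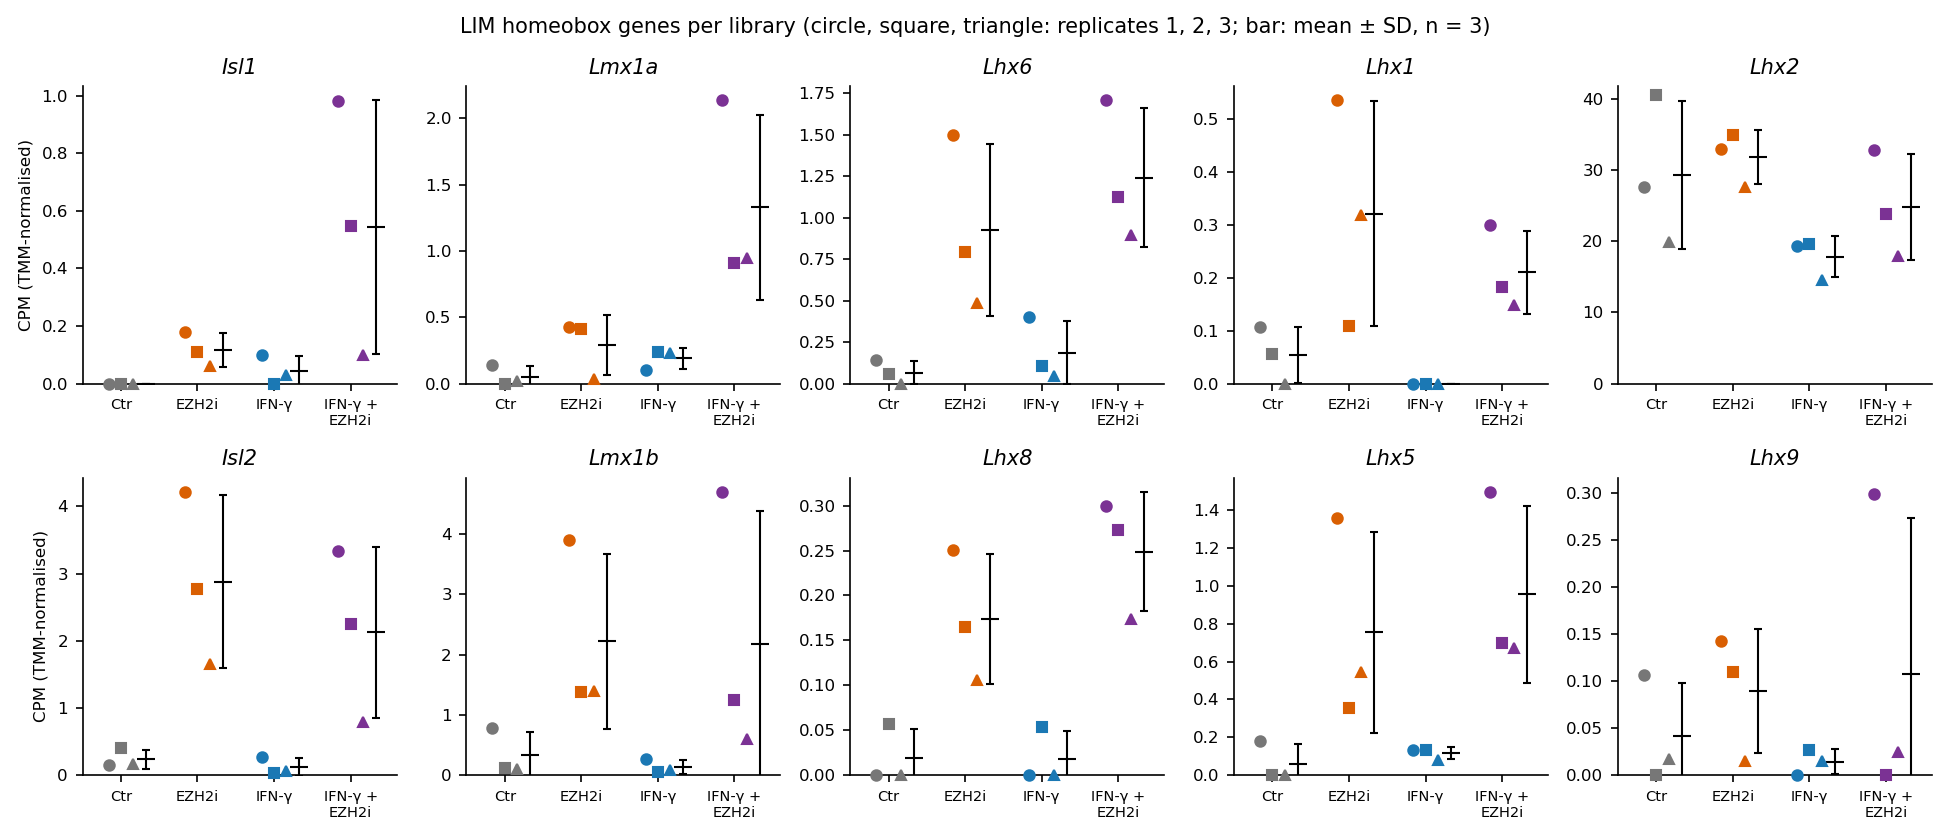
CPM of the 10 members in each library by group, one panel per gene with its own linear y axis from 0. Points are libraries (circle, square and triangle for replicates 1, 2 and 3), and the black bar is the mean ± SD of 3 libraries, cut off at 0. Isl2, Lmx1b, Lhx5, Lhx6, Lhx1 and Lhx8 are higher in every library with EZH2i than in every library without it at the same IFN-γ state, whereas the Lhx2 libraries overlap.

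The effect of EZH2 inhibition was asked without IFN-γ (EZH2i versus Ctr) and with it (IFN-γ with EZH2i versus IFN-γ). Ezh2 itself was at 49.4 ± 5.21 CPM in Ctr, 39.6 ± 7.66 in EZH2i, 46.6 ± 4.80 with IFN-γ and 38.1 ± 5.28 with IFN-γ and EZH2i, and it passed the test in neither comparison (adjusted p = 0.806 and 0.899, edgeR). The inhibitor acts on the enzyme, so the level of Ezh2 does not check its action. Lhx2, Lhx5, Lhx6, Isl2, Lmx1a and Lmx1b (6 of the 10 members) passed the filter on low counts and were tested, together with Lhx3 and Lhx4. All but Lhx2 of these passed through the groups with EZH2i, where they were high. In EZH2i versus Ctr, edgeR's quasi-likelihood test called 0 of 6 members at an adjusted p under 0.05 (Benjamini-Hochberg over 18995 genes), where it called 0.405% of all tested genes higher. At an unadjusted p under 0.05, 4 of the 6 passed, as did 1338 of all 18995 tested genes. DESeq2 called 3 of the 10 (Lhx5, Lhx6 and Isl2), with 1.26% of its tested genes called higher. The 6 log2 fold changes were 0.12 to 4.01. As 5 of the 6 passed the filter through the groups where they were high, a difference was built into their selection, and counts over the 6 are a description in both comparisons. In 7 of the 10 members each EZH2i library was above each Ctr library in CPM, which held for 7.37% of all tested genes, a share that does not cover the 4 untested members. In IFN-γ with EZH2i versus IFN-γ, 1 of 6 members was called higher (Isl2), where 0.347% of all tested genes were. The 6 log2 fold changes were 0.47 to 4.27, 5 of them with an unadjusted p under 0.05, which 1220 of all 18995 tested genes had. DESeq2 called 5 of the 10 (Lhx1, Lhx5, Lhx6, Isl2 and Lmx1b), with 1.03% of its tested genes called higher. Here, too, 7 of the 10 members did not overlap between the groups, compared with 6.08% of all tested genes. In TPM, an alternative added after the data were seen and without a share over all genes, it was 6 of 10 in both comparisons. Lhx1 dropped out in the first and Lmx1b in the second. In this second comparison libraries with the same replicate number deviated together, so the fit with the replicate number as a block is given beside it: of the 6 members it called 4 higher (Lhx5, Lhx6, Isl2 and Lmx1b), with 3.11% of all tested genes called higher. In EZH2i versus Ctr, where the pairing was less even, this fit called the same 4 members. It called 771 of all 18995 tested genes there, in either direction.

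**Figure D3:**
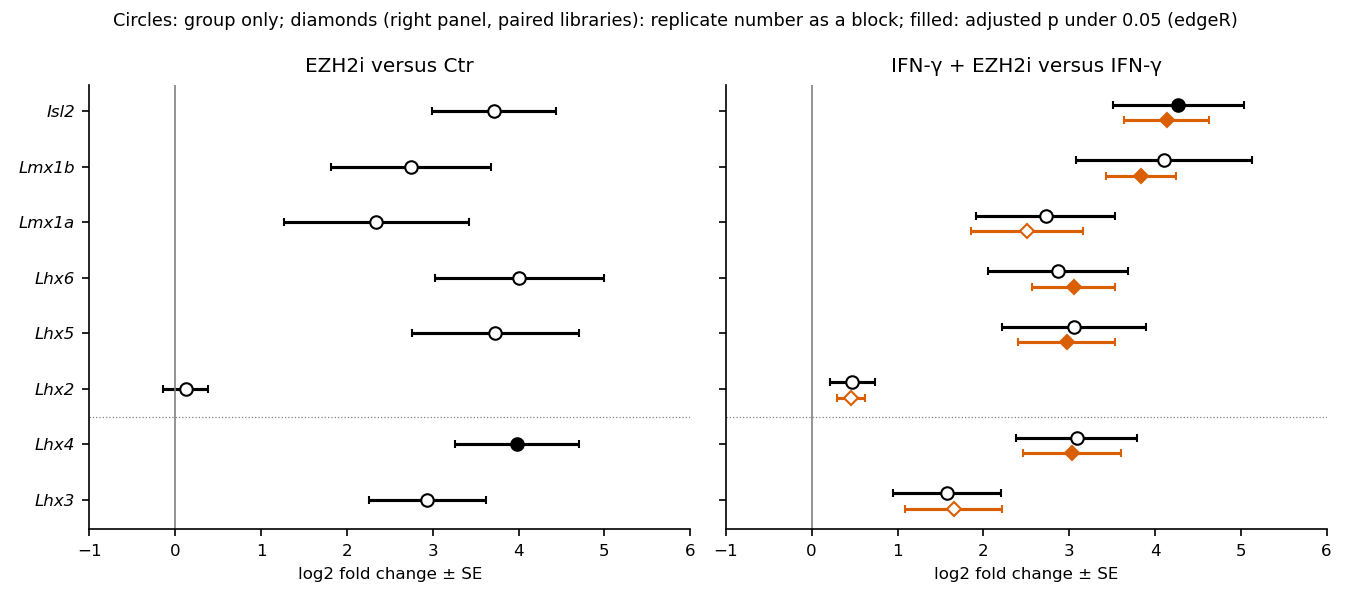
Log2 fold change ± SE (x axis) of the 6 tested members and, under the dotted line, of Lhx4 and Lhx3, for EZH2i versus Ctr (left) and IFN-γ with EZH2i versus IFN-γ (right). Circles are from the edgeR fit with the group only, diamonds (right) from the fit with the replicate number as a block, and filled symbols have an adjusted p under 0.05. Isl2 passes on the right in both fits, Lhx4 on the left, and Lhx2 lies at 0.12 and 0.47.

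Isl1 and Isl2 are the Islet genes of motor neurons, of which Isl1 also acts in sensory, striatal and heart progenitors. Isl2 (ENSMUSG00000032318, chr9:55538672-55546180, plus strand) had 4, 7 and 10 counts in the Ctr libraries and 118, 101 and 109 in the EZH2i libraries. With IFN-γ it had 8, 1 and 4 counts, and with IFN-γ and EZH2i 78, 74 and 32. The groups with and without EZH2i did not overlap, and in CPM the lowest library with EZH2i (0.795) was above the highest one without it (0.395). In CPM, Isl2 was at 0.236 ± 0.139 in Ctr, 2.88 ± 1.29 in EZH2i, 0.119 ± 0.130 with IFN-γ and 2.13 ± 1.27 with IFN-γ and EZH2i (SD, n = 3). The log2 fold change was 3.71 (SE 0.72, adjusted p = 0.0566, edgeR) without IFN-γ and 4.27 (SE 0.76, adjusted p = 0.0401) with it. With the replicate block the change without IFN-γ was 3.56 (SE 0.46, adjusted p = 9.99e-04). In the presence of IFN-γ, Isl2 rose with EZH2i in the fit without the block and in the fit with it (4.14, SE 0.50, adjusted p = 7.08e-04). The call without the block was lost with only the 6 libraries of the comparison (adjusted p = 0.240), with length-scaled TPM (0.0649) and in 11 of 12 fits that left out 1 library (adjusted p = 0.0198 to 0.206 over the 12), and it stayed without IFN-γ with EZH2i replicate 3. The log2 fold change itself lay between 3.79 and 5.37 in these fits.

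Isl1 (ENSMUSG00000042258, chr13:116298281-116309689, minus strand) had 0 counts in the 3 Ctr libraries and 5, 4 and 4 in EZH2i, which is at least 3.49-fold higher, against a floor of 3 counts over the Ctr group. The exact 95% lower limit, which also takes in the counting error of EZH2i, was 2.45. With IFN-γ it had 3, 0 and 2 counts, and with IFN-γ and EZH2i 23, 18 and 4. The last value keeps IFN-γ with EZH2i replicate 3 (0.0994 CPM) just below IFN-γ replicate 1 (0.101 CPM), so these groups overlapped, and the ratio of the pooled counts was 12.3 (95% interval 4.91 to 39.8). This interval and those of other pooled counts are exact and cover counting error only, not the spread between litters. Isl1 did not pass the filter and was not tested by edgeR.

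Salmon divides the reads of a gene between its annotated transcripts. Of the Isl2 TPM, 68.0% in EZH2i went to Isl2-202, annotated as a target of nonsense-mediated decay, and 23.6% to the coding transcript Isl2-201. With IFN-γ and EZH2i these shares were 52.4% and 34.0%. Isl2-201 has an exon of 263 bases (chr9:55542397-55542659) that Isl2-202 lacks. The split differed widely between libraries: Isl2-201 was given 0.0245, 64.1 and 45.1 counts in the EZH2i libraries, 20.6, 48.4 and 3.94 with IFN-γ and EZH2i, and 0 in all 6 libraries without the inhibitor. The sum for the gene is therefore better measured than the form of its transcript. Isl1 had 89.0% of its TPM in EZH2i on a transcript with a retained intron, from 13 counts in all. The libraries were made from total RNA, which includes unspliced transcripts.

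Lmx1b and Lmx1a act in dopamine and serotonin neurons, in the roof plate and, for Lmx1b, in the dorsal limb. Lmx1b (ENSMUSG00000038765, chr2:33560965-33640511, minus strand) had 22, 2 and 6 counts in Ctr, 109, 50 and 92 in EZH2i, 8, 2 and 5 with IFN-γ, and 110, 41 and 24 with IFN-γ and EZH2i. The levels were 0.332 ± 0.388 CPM in Ctr, 2.22 ± 1.45 in EZH2i, 0.133 ± 0.118 with IFN-γ and 2.18 ± 2.21 with IFN-γ and EZH2i. In CPM the libraries with EZH2i were above those without it at either IFN-γ state, but replicate 1 was the highest library of all 4 groups and the spread with EZH2i was wide. Lmx1b had a log2 fold change of 2.75 (SE 0.94, adjusted p = 0.413, edgeR) without IFN-γ and 4.11 (SE 1.02, adjusted p = 0.180) with it. With the replicate block the change without IFN-γ was 3.02 (SE 0.37, adjusted p = 8.07e-04). In the presence of IFN-γ, Lmx1b rose with EZH2i in the block fit (3.84, SE 0.41, adjusted p = 3.95e-04). This difference was smaller on scales that take transcript length into account: without the block it was 2.12 (adjusted p = 0.915, edgeR) with length-scaled TPM, and the log2 ratio of group means was 4.04 in CPM and 2.09 in TPM. In TPM, IFN-γ replicate 1 (0.188) was above IFN-γ with EZH2i replicate 3 (0.0824). Its 2 coding transcripts carried 45.2% and 47.1% of its TPM in EZH2i.

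Lmx1a (ENSMUSG00000026686, chr1:167689237-167848741, plus strand) had 4, 0 and 1 counts in Ctr and 12, 15 and 2 in EZH2i. EZH2i replicate 3 (0.0304 CPM) lay below Ctr replicate 1 (0.142 CPM), so the groups overlapped. With IFN-γ it had 3, 9 and 15 counts, and with IFN-γ and EZH2i 50, 30 and 38, where the groups did not overlap. For Lmx1a the log2 fold change was 2.34 (SE 1.07, adjusted p = 0.708, edgeR) without IFN-γ and 2.73 (SE 0.81, adjusted p = 0.319) with it, and the replicate block did not bring the second past the threshold (2.51, SE 0.65, adjusted p = 0.0573). Lmx1a was highest when both agents were given (1.33 ± 0.698 CPM, against 0.290 ± 0.225 in EZH2i, 0.191 ± 0.0781 with IFN-γ and 0.0529 ± 0.0775 in Ctr).

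Lhx6 and Lhx8 are neighbours in function in the ventral forebrain, where Lhx6 marks cortical GABA neurons and Lhx8 cholinergic neurons. Lhx6 (ENSMUSG00000026890, chr2:36081953-36105408, minus strand) had 4, 1 and 0 counts in Ctr, 42, 29 and 32 in EZH2i, 12, 4 and 3 with IFN-γ, and 40, 37 and 36 with IFN-γ and EZH2i. No library with EZH2i overlapped with one without it, in counts or in CPM (0.0661 ± 0.0714 in Ctr, 0.927 ± 0.521 in EZH2i, 0.185 ± 0.190 with IFN-γ, 1.24 ± 0.420 with both). The log2 fold change was 4.01 (SE 0.99, adjusted p = 0.146, edgeR) and, with IFN-γ, 2.87 (SE 0.82, adjusted p = 0.286). With the replicate block Lhx6 rose with EZH2i in the presence of IFN-γ (3.05, SE 0.48, adjusted p = 0.00410). The block fit gave 4.05 (SE 0.61, adjusted p = 0.00317) without IFN-γ. Lhx8 (ENSMUSG00000096225, chr3:154306294-154330659, minus strand), the member with the CG-poor start shown above, had 0, 1 and 0 counts in Ctr and 7, 6 and 7 in EZH2i. With IFN-γ it had 0, 2 and 0, and with IFN-γ and EZH2i 7, 9 and 7. The 6 libraries with EZH2i were all above the 6 without it. The ratio of pooled counts was 16.1 (95% interval 2.57 to 667) without IFN-γ and 15.7 (3.89 to 138) with it, and the wide intervals show how few reads Lhx8 had. Lhx8 did not pass the filter. Of its TPM in EZH2i, 41.7% went to a transcript annotated as a target of nonsense-mediated decay and 42.6% to one with a retained intron. These shares rest on 20 counts. With IFN-γ and EZH2i the decay target had 48.5% and the rest went to coding transcripts.

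Lhx1 and Lhx5 are close relatives that act together in Purkinje cells and spinal interneurons, and Lhx1 is also needed in the head organiser and the kidney. Lhx5 (ENSMUSG00000029595, chr5:120431699-120441223, plus strand), with its single annotated transcript, had 5, 0 and 0 counts in Ctr, 38, 13 and 36 in EZH2i, 4, 5 and 5 with IFN-γ, and 35, 23 and 27 with IFN-γ and EZH2i. The groups with and without EZH2i did not overlap. Lhx5 had a log2 fold change of 3.73 (SE 0.97, adjusted p = 0.181, edgeR) without IFN-γ and 3.06 (SE 0.84, adjusted p = 0.253) with it. With the replicate block Lhx5 rose with EZH2i in the presence of IFN-γ (2.97, SE 0.56, adjusted p = 0.0118). The block fit gave 3.82 (SE 0.68, adjusted p = 0.00830) without IFN-γ. Lhx1 (ENSMUSG00000018698, chr11:84518284-84525535, minus strand) had 3, 1 and 0 counts in Ctr and 15, 4 and 21 in EZH2i. With IFN-γ it had 0 counts in the 3 libraries, and with IFN-γ and EZH2i 7, 6 and 6. The groups did not overlap in CPM at either IFN-γ state. In TPM, Ctr replicate 1 (0.205) was above the EZH2i libraries (0.161, 0.0456 and 0.177). The ratio of pooled counts was 8.04 (95% interval 2.91 to 31.0) without IFN-γ, whereas the log2 ratio of the group means was 2.57 in CPM and 0.83 in TPM. With IFN-γ, Lhx1 was at least 8.67-fold higher with EZH2i, against a floor of 3 counts over the IFN-γ group, with an exact 95% lower limit of 6.39. Lhx1 did not pass the filter.

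Lhx2 and Lhx9 are close relatives. Lhx2 (ENSMUSG00000000247, chr2:38339281-38369733, plus strand) had 778, 718 and 1177 counts in Ctr, 923, 1277 and 1817 in EZH2i, 575, 739 and 946 with IFN-γ, and 767, 783 and 720 with IFN-γ and EZH2i. In CPM this was 29.4 ± 10.4 in Ctr, 31.9 ± 3.83 in EZH2i, 17.8 ± 2.83 with IFN-γ and 24.8 ± 7.50 with IFN-γ and EZH2i. The libraries with and without EZH2i overlapped at both IFN-γ states. The log2 fold change was 0.12 (SE 0.26, adjusted p = 0.985, edgeR) without IFN-γ and 0.47 (SE 0.27, adjusted p = 0.890) with it, and without Ctr replicate 3 the first turned to -0.095. With these standard errors, the estimates for Lhx2 lay far below those of Isl2 and Lhx6. Lhx9 (ENSMUSG00000019230, chr1:138825186-138848577, minus strand), which acts in the gonad and in commissural neurons, had 3, 0 and 1 counts in Ctr and 4, 4 and 1 in EZH2i. It had 0, 1 and 1 counts with IFN-γ, and 7, 0 and 1 with IFN-γ and EZH2i. Its groups overlapped in both comparisons. The ratio of pooled counts was 1.81 (95% interval 0.505 to 8.04) without IFN-γ and 5.48 (1.09 to 52.9) with it, where 7 of the 8 counts came from replicate 1. Lhx9 did not pass the filter.

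The remaining genes of the family, Lhx3 and Lhx4, act in motor neurons and in the pituitary. Lhx4 (ENSMUSG00000026468, chr1:155698031-155751684, minus strand) had 3, 0 and 13 counts in Ctr, 83, 88 and 81 in EZH2i, 8, 1 and 10 with IFN-γ, and 45, 34 and 35 with IFN-γ and EZH2i. It rose in EZH2i versus Ctr (log2 fold change 3.99, SE 0.72, adjusted p = 0.0402, edgeR). In IFN-γ with EZH2i versus IFN-γ it was at 3.09 (SE 0.70, adjusted p = 0.130), and with the replicate block it passed (adjusted p = 0.0118). Lhx3 had 7, 1 and 2 counts in Ctr and 33, 33 and 29 in EZH2i (2.93, SE 0.68, adjusted p = 0.115, edgeR). With IFN-γ it had 4, 10 and 7 counts, and with IFN-γ and EZH2i 9, 16 and 25. The log2 fold change there was smaller, at 1.58 (SE 0.63, adjusted p = 0.647, edgeR), and the replicate block gave 1.66 (adjusted p = 0.144). In EZH2i, 84.8% of the Lhx3 TPM lay on 1 retained-intron transcript. The EZH2i and Ctr libraries did not overlap in either gene.

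In the groups with EZH2i, the members were highest in the same library. Replicate 1 had the highest CPM of its group for 9 of 10 members in EZH2i, the exception being Lhx2, and for 10 of 10 with IFN-γ and EZH2i. Over all tested genes, replicate 1 was the highest in 37.7% and 37.9%. Compared number by number in IFN-γ with EZH2i versus IFN-γ, the library with EZH2i was above the one without it in 3 of 3 pairs for 9 members and in 2 of 3 for Lhx9, where 23.3% of all tested genes were higher in 3 of 3.

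IFN-γ alone was compared with Ctr, and IFN-γ with EZH2i was compared with EZH2i. These comparisons share libraries with the previous ones. In IFN-γ versus Ctr, edgeR and DESeq2 called 0 members, against 8.75% of all tested genes called in either direction by edgeR. An unadjusted p under 0.05 was found for 1 of the 6 tested members (Lhx2) and for 3612 of all 18995 tested genes. Lhx2 was lower with IFN-γ in every library (14.6, 19.3 and 19.7 CPM, against 20.0, 27.6 and 40.5 in Ctr), with a log2 fold change of -0.71 (SE 0.27, adjusted p = 0.149). In IFN-γ with EZH2i versus EZH2i, 0 members were called by edgeR or DESeq2, with 8.07% of all tested genes called by edgeR. Here 1 of 6 members (Lmx1a) and 3356 of all 18995 tested genes had an unadjusted p under 0.05. Lmx1a was at 0.912, 0.944 and 2.14 CPM with both agents and at 0.0304, 0.411 and 0.429 with EZH2i (log2 fold change 2.27, SE 0.80, adjusted p = 0.126). Libraries of this comparison were also paired by number, and with the replicate block Lmx1a rose (2.37, SE 0.65, adjusted p = 0.0222), where 11.0% of all tested genes were called higher. The difference between the EZH2i effects with and without IFN-γ was tested as an interaction. It was called for 0 of 6 members and for 0 of 18995 genes by edgeR, 0 of 6 at an unadjusted p under 0.05, and for 0 genes by DESeq2. The interaction on the log2 scale lay between -1.14 (SE 1.30) in Lhx6 and 1.36 (SE 1.36) in Lmx1b. The SE was 0.38 in Lhx2 and between 1.02 and 1.68 in the other 5 members, so at this depth and spread a 2-fold difference between the effects was not detectable in them.

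The genes beside the members were read in the same fit. For each member the nearest coding gene on each side and all genes within 20 kb were taken, which gave 33 genes. Of the 20 coding neighbours 19 were tested, and edgeR and DESeq2 called 0 of them in either EZH2i comparison (0 at an unadjusted p under 0.05). Their log2 fold changes were -0.32 to 0.21 (median 0.00) without IFN-γ and -0.29 to 0.28 (median -0.02) with it, none of which reached those of the 5 members with the larger changes. These 5 members passed the filter on low counts through the groups with EZH2i. A difference was thus built into their selection, and the contrast with the neighbours is a description. The nearest of them were close: Morn5 lies 2235 bp from Lhx6 (too few counts to test), 2310009B15Rik 3406 bp from Lhx9, Scaper 3699 bp from Isl2 and Aatf 4762 bp from Lhx1.

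**Figure D4:**
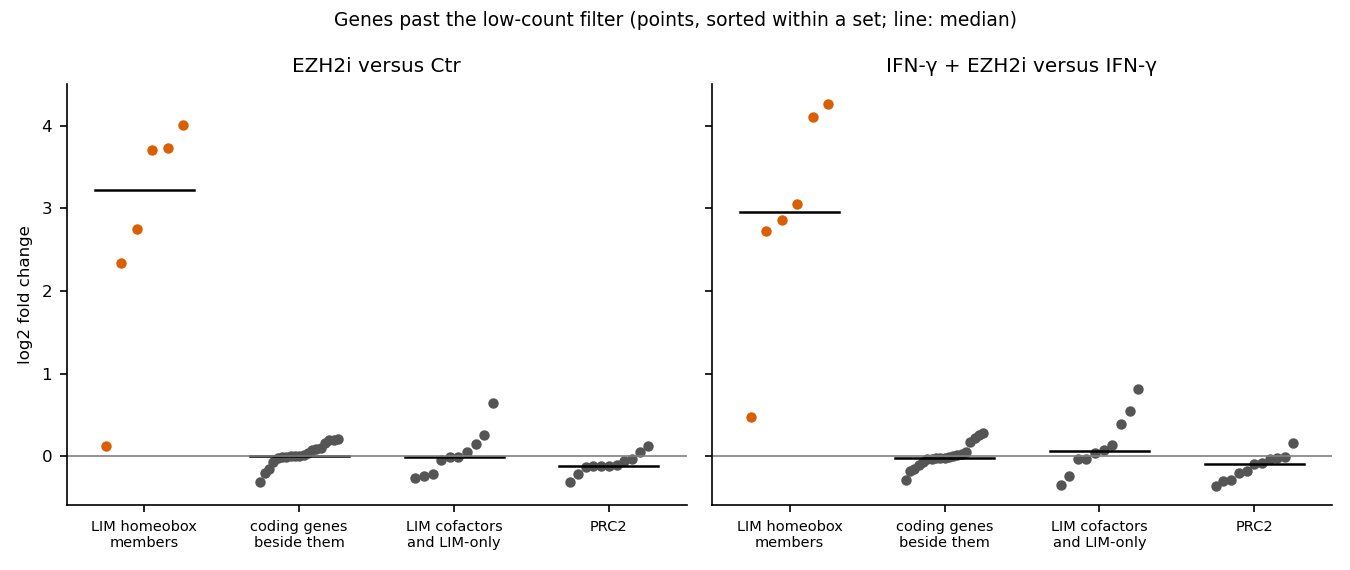
Log2 fold change (y axis) of single genes (points) for EZH2i versus Ctr (left) and IFN-γ with EZH2i versus IFN-γ (right), in the 6 tested members, 19 coding neighbours, 10 genes of LIM cofactors and LIM-only proteins, and 11 PRC2 genes, with the median of each set as a line. Of the members, 5 of 6 lie above 2 and Lhx2 at 0.12 and 0.47, while the neighbours stay between -0.32 and 0.28. The 5 members above 2 passed the filter on low counts through the groups with EZH2i, so a difference was built into their selection.

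Of the 13 noncoding neighbours 1 was tested. Among those on the strand opposite to their member, AI606473 (162 bp from Lhx8) and Gm27199 (overlapping the start of Lhx5) had 0 counts in all 4 groups, and Gm17226 (within Isl2) had 4 counts in EZH2i and 0 in the others. Lhx1os and C130021I20Rik, the ones with more counts beside a start, are described because of their values. Lhx1os starts at chr11:84525660, within the Lhx1 sequence shown above and 125 bp from the Lhx1 gene. It had 0 counts in the 3 Ctr libraries and 5, 22 and 25 in EZH2i, 0, 1 and 0 with IFN-γ, and 1, 8 and 4 with IFN-γ and EZH2i. C130021I20Rik starts at chr2:33641193, within the Lmx1b sequence shown above. It had 2, 0 and 2 counts in Ctr, 29, 20 and 21 in EZH2i, 1, 1 and 0 with IFN-γ, and 26, 7 and 5 with IFN-γ and EZH2i. In both genes the libraries with EZH2i were above those without it at either IFN-γ state. C130021I20Rik had a log2 fold change of 3.91 (SE 1.04, adjusted p = 0.195, edgeR) without IFN-γ and 4.59 (SE 1.16, adjusted p = 0.183) with it. DESeq2 called both genes in EZH2i versus Ctr and C130021I20Rik in the other comparison. Neither overlaps its partner in the annotation. The kit is a stranded one, but the strand setting of the counting is not given in the sources used here.

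**Figure D5:**
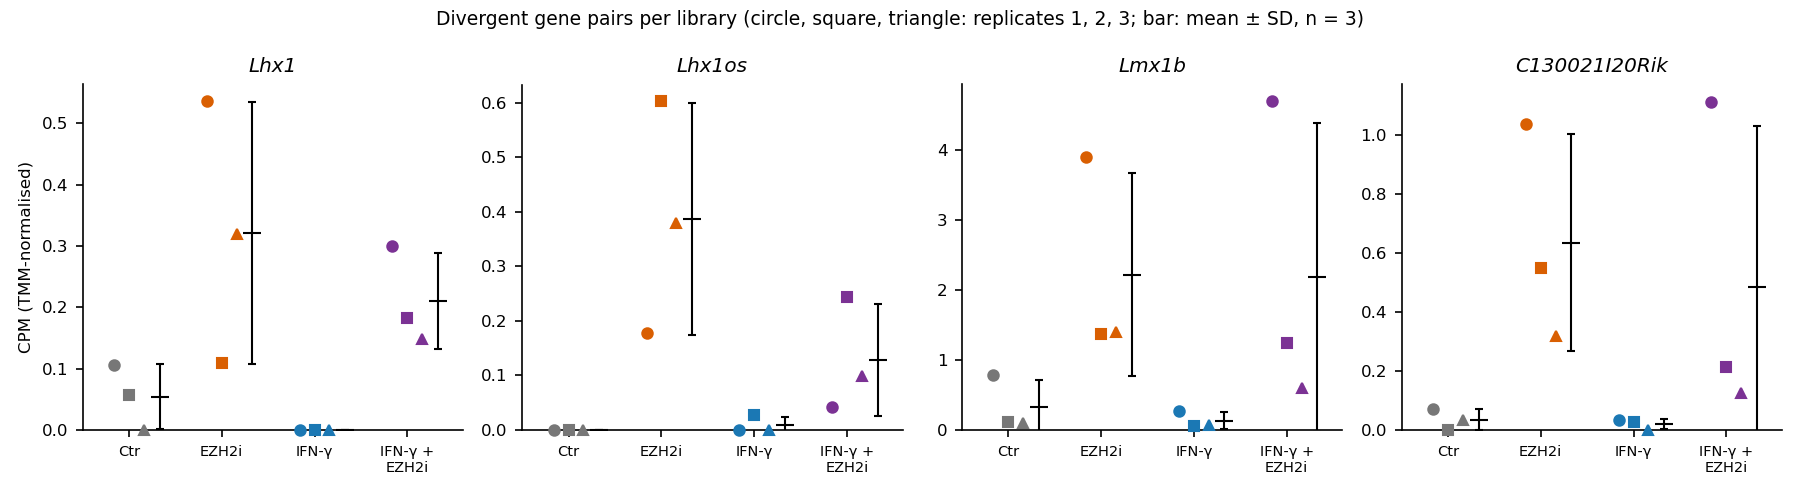
CPM per library of Lhx1 and Lmx1b and of the noncoding genes Lhx1os and C130021I20Rik that start beside them on the opposite strand, each with its own linear y axis from 0. Points are libraries (circle, square and triangle for replicates 1, 2 and 3), and the black bar is the mean ± SD of 3 libraries, cut off at 0. At either IFN-γ state each library with EZH2i lies above each library without it in all 4 genes, though Lmx1b reaches 0.780 CPM in Ctr replicate 1, and in EZH2i Lhx1os is highest in replicate 2 and Lhx1 in replicate 1.

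The partners that LIM homeobox proteins need were already expressed. Ldb1, the cofactor that bridges LIM domains, was at 90.6 CPM in Ctr and 90.2 in EZH2i, 94.1 with IFN-γ and 92.1 with both agents. Of 10 genes for LIM cofactors and LIM-only proteins, edgeR called 0 in either EZH2i comparison (2 and 3 at an unadjusted p under 0.05). DESeq2 called 0 without IFN-γ and 1 with it (Lmo2, a LIM-only protein of blood and vessel progenitors). The medians were -0.01 and 0.06 on the log2 scale. With IFN-γ against Ctr, Lmo4 (0.98, SE 0.20, adjusted p = 0.00735, edgeR) and Lmo2 (1.06, adjusted p = 0.0122) rose, and Ldb2 (-1.07, adjusted p = 0.0133) and Lmo3 (-1.14, adjusted p = 0.00493) fell. LIM-only proteins compete with LIM homeobox proteins for LDB1. The 11 PRC2 genes held 0 calls by edgeR or DESeq2 in the EZH2i comparisons and 0 at an unadjusted p under 0.05 (medians -0.12 and -0.09).

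Genes that act with the members in the neuron types named above were counted from lists. In EZH2i versus Ctr and in IFN-γ with EZH2i versus IFN-γ, edgeR called 0 and 0 of 6 tested motor neuron genes, 0 and 0 of 17 forebrain GABA and cholinergic genes, 0 and 0 of 9 midbrain dopamine genes and 0 and 0 of 3 serotonin genes. The lists were chosen with earlier results of these libraries known, so their counts are a description. Over all tested genes, 0.405% and 0.347% were called higher by edgeR, and 1.26% and 1.03% by DESeq2. Of 18995 genes, 1338 and 1220 had an unadjusted p under 0.05, and 7.37% and 6.08% were higher without overlap. An unadjusted p under 0.05 was found for 1 and 1 motor neuron genes, 4 and 4 forebrain genes, 5 and 5 dopamine genes and 0 and 0 serotonin genes. DESeq2 called 1 and 0, 1 and 2, 5 and 4, and 0 and 0 of them. The dopamine list held En1, which patterns the midbrain, at 0.539 CPM in Ctr and 4.08 in EZH2i (log2 fold change 2.92, adjusted p = 0.112, edgeR), and Slc6a3, the dopamine transporter, at 0.209 and 1.39 CPM (2.55, adjusted p = 0.0566). Both were higher in every EZH2i library than in every Ctr library, and DESeq2 called both, as well as Foxa2, En2 and Msx1. Other genes of the list did not pass, with log2 fold changes of -0.38 in Nr4a2, -0.31 in Ddc, -0.15 in Slc18a2 and -0.05 in Otx2 (adjusted p = 0.971, 0.980, 0.983 and 0.997, edgeR), and Th (0.0236 and 0.0183 CPM) and Pitx3 (0.124 and 0.102 CPM) were too low to test. Of the spinal interneuron and sensory list 1 of 8 tested genes rose in each comparison: Tlx1, a homeobox gene of dorsal horn neurons, with 0.0594 CPM in Ctr and 3.38 in EZH2i (log2 fold change 5.78, SE 0.96, adjusted p = 0.0401, edgeR), and 0 in the 3 IFN-γ libraries against 2.56 CPM with IFN-γ and EZH2i (adjusted p = 0.0260). In this list 6 and 5 genes had an unadjusted p under 0.05 and DESeq2 called 4 and 2. Of the roof plate and cortical hem list 1 of 10 tested genes rose in EZH2i versus Ctr: Rspo3, a secreted activator of Wnt signalling, from 0.111 to 0.623 CPM (2.30, SE 0.34, adjusted p = 0.0181). There, 10 of these 10 had an unadjusted p under 0.05, DESeq2 called 6, and 10 did not overlap between the groups. In the second comparison edgeR called 0 of these 10, with 7 at an unadjusted p under 0.05 and 2 called by DESeq2. The medians of the 5 neuron and roof plate lists in EZH2i versus Ctr were 0.48 (motor neuron), 0.27 (forebrain), 1.00 (dopamine), 3.86 (spinal and sensory) and 1.90 (roof plate), with 0.05 for the serotonin list. In IFN-γ with EZH2i versus IFN-γ they were 0.75, 0.43, 1.06, 2.18, 1.08 and 0.33. These medians cover only genes past the filter on low counts, 8 of 13 in the spinal and sensory list. Genes such as Tlx1 and Lbx1 (0.0594 and 0.0113 CPM in Ctr) passed it through the groups with EZH2i. For such genes a difference was built into the selection.

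General neuron markers moved in part with the members. Of 7 neuron markers, 4 (Rbfox3, Snap25, Syt1 and Stmn2) were higher in every library with EZH2i than in every library without it, at either IFN-γ state. This held for 7.37% of all tested genes without IFN-γ and for 6.08% with it. Snap25, of the synaptic vesicle machinery, was at 11.1 CPM in Ctr and 26.2 in EZH2i (log2 fold change 1.23, adjusted p = 0.0776, edgeR). Stmn2, a regulator of microtubules in growing axons, rose in IFN-γ with EZH2i versus IFN-γ (0.855 to 5.03 CPM, 2.54, SE 0.42, adjusted p = 0.0321). The sum over the 7 markers, of which Map2 made up most in these groups, overlapped between EZH2i (673 to 986 CPM) and Ctr (800 to 884 CPM). Oligodendrocyte markers summed to 1892 to 2325 CPM in Ctr and 1112 to 1641 in EZH2i. Endothelial markers were at 9.43 to 17.2 CPM in Ctr and 19.6 to 35.5 in EZH2i, of which Flt1 made up most. Pericyte and leptomeningeal markers were at 1.13 to 2.15 and 2.49 to 3.75 CPM. None of the 6 oligodendrocyte, 6 astrocyte or 7 OPC markers was called by edgeR in the EZH2i comparisons, and DESeq2 called Mbp lower in EZH2i versus Ctr. In IFN-γ with EZH2i versus IFN-γ the replicate block called 3.11% of all tested genes higher, and its calls in either direction are given further below. Of the markers it called 4 oligodendrocyte and 2 OPC markers lower, and 3 astrocyte and 4 neuron markers higher. The part of these shifts in the values of the LIM homeobox genes was not tested.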

How the data were processed

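The libraries were made by the authors from total RNA with a stranded TruSeq kit and sequenced on a NovaSeq, 1 library per sample. Reads were trimmed and quantified by the authors with Salmon 0.8.2 against mouse transcripts of GRCm38, and the deposited files give, per transcript, estimated counts that are not normalised and TPM, scaled by the authors to the same total in each library. STAR and DESeq2 are also named in the submitters' processing notes. The deposited tables of the authors' own DESeq2 comparisons hold base means, fold changes and p-values, and were not used.

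All 141862 transcripts matched GENCODE M21, and estimated counts and TPM were summed to 55536 genes. Counts were rounded. The test was edgeR 4.0.16 (R 4.3.3, quasi-likelihood, TMM factors, default filter on low counts, 18995 genes left), with the group as the only term, all 12 libraries in 1 fit and Benjamini-Hochberg adjustment at 0.05 over all genes tested. CPM values use the same TMM factors. The code was tested on simulated counts with 200 changed genes.

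The members and gene lists were chosen with earlier results of these data known. The members, Lhx3, Lhx4, Ezh2, genes of a list called in an EZH2i comparison and markers that did not overlap were named by rule. The neighbours named (Lhx1os and C130021I20Rik among them), En1, Slc6a3 and the LIM cofactors were chosen after their values were seen.

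Pairing by replicate number was checked with the correlation of same-numbered libraries' deviations from their group means over genes. It was 0.493 to 0.642 in IFN-γ with EZH2i versus IFN-γ and 0.496 to 0.621 in IFN-γ with EZH2i versus EZH2i, which were taken as paired. For replicates 1, 2 and 3 it was 0.441, 0.0467 and 0.495 in EZH2i versus Ctr. In IFN-γ versus Ctr it was 0.490, 0.0854 and 0.544. These comparisons were not taken as paired, as replicate 2 was low, although replicates 1 and 3 did deviate together. The numbers come from the labels, which do not say what they mark. The study's methods name different litters for replicates.

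Alternatives were the replicate block, DESeq2 1.42.0, RLE factors, no filter, length-scaled TPM, only the 6 libraries of a comparison, 391 mitochondrial and rRNA genes left out, and each library left out in turn. Pooled counts were compared by exact intervals at 95%, with a floor of 3 counts for a group at 0. Promoter windows were taken from RefSeq (GRCm38.p6). Protein sequences were not used here.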

Additional observations from a re-analysis of the deposited data

How the results depend on the processing

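In EZH2i versus Ctr, where 0 members were called, DESeq2 called 3, the replicate block 4 (Lhx5, Lhx6, Isl2 and Lmx1b), the fit without a filter 1 and the fit of only the 6 libraries 1, both Isl2 (adjusted p = 0.0136 and 0.0480, edgeR). Leaving out 1 library gave 0 to 1 members, with Isl2 called without IFN-γ replicate 1 and without IFN-γ with EZH2i replicate 3. In IFN-γ with EZH2i versus IFN-γ, where 1 was called, DESeq2 called 5 (Lhx1, Lhx5, Lhx6, Isl2 and Lmx1b), the replicate block 4, length-scaled TPM 0 and the 6 libraries 0, and leaving out 1 library gave 0 to 1. In IFN-γ versus Ctr the replicate block called 1 (Lhx2, -0.68, adjusted p = 0.00910), and in IFN-γ with EZH2i versus EZH2i it called 1 (Lmx1a), where 0 were called without it. In TPM, chosen after seeing the data, 6 members did not overlap in each EZH2i comparison, against 7 in CPM. The share over all genes was not taken in TPM. The interaction stayed at 0 members in each fit run. Lhx2 in EZH2i versus Ctr (0.12) changed sign without Ctr replicate 3 and lay between -0.095 and 0.42 with 1 library left out. The cause of these shifts was not tested. Of the single values, 212 kept their direction and side of the threshold, 17 newly passed it and 13 no longer did, and 2 ratios of group means (Lhx1 without IFN-γ, Lmx1b with it) moved by more than the spread between replicates with summed TPM.

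Over all genes the calls in EZH2i versus Ctr were 77, against 297 with DESeq2, 771 with the replicate block, 121 without a filter, 33 with 6 libraries, 49 with length-scaled TPM and 11 to 83 with 1 library left out. In IFN-γ with EZH2i versus IFN-γ they were 67, against 259, 748, 90, 7, 31 and 10 to 65. The block raised the calls from 1663 to 4032 in IFN-γ versus Ctr and from 1533 to 3661 in IFN-γ with EZH2i versus EZH2i. In fits that left out a library, a group of 2 remained and the spread was pooled over groups. Depth differed 3.82-fold between libraries, and members other than Lhx2 had too few counts without EZH2i for a firm baseline.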

Other observations

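Genes other than the members, with a mean of at least 1 CPM (14678 compared), were ranked by how closely they followed Isl2 across the 12 libraries. The measure was Pearson's r of log2(CPM + 0.1), as a description only, since the libraries share their groups. The first 5 were Neurod1 (r = 0.973), Shisa8 (0.972), Tlx1 (0.968), Svop (0.954) and Hoxd8 (0.954). Neurod1, a proneural transcription factor, was at a mean of 0.558 CPM in Ctr, 5.16 in EZH2i, 0.366 with IFN-γ and 4.66 with both agents. Hoxd8, a Hox gene of the trunk, was at 0.0476 CPM in Ctr, 7.60 in EZH2i, 0.0103 with IFN-γ and 6.97 with both. Svop, a synaptic vesicle protein, had a higher baseline, at 10.8 CPM in Ctr and 26.8 in EZH2i, and 9.26 with IFN-γ against 24.0 with both.

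Rspo3 was at 0.111 CPM in Ctr, 0.623 in EZH2i, 4.80 with IFN-γ and 9.79 with both agents. It rose with IFN-γ against Ctr (log2 fold change 5.27, adjusted p = 4.19e-07, edgeR). In this comparison edgeR called 0 of the 6 tested LIM homeobox members, all but Lhx2 with few reads there. Lmx1a was, like Rspo3, highest with both agents. Of the 7 neuron markers, edgeR called 3 higher with IFN-γ against Ctr and 0 lower. Tubb3 rose from 26.7 to 916 CPM (5.10, adjusted p = 1.24e-06), Stmn2 by 2.85 (adjusted p = 0.00372) and Syt1 by 2.03 (adjusted p = 6.15e-04). Rbfox3, not called, was at 1.78 CPM in Ctr and 1.25 with IFN-γ (-0.49, adjusted p = 0.629).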
